A study of Homo sapiens with 6 samples.

Results

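The genes of interest encode the enzymes that write and erase DNA methylation and the proteins that work beside them: DNMT1, DNMT3A, DNMT3B, UHRF1, TET1, TET2, TET3, TDG and MBD2. They were taken by symbol from the raw count table, where all 9 were found among 53715 genes, and all 9 passed the filter on low counts that left 19156 genes to test. Their RNA was measured in H9 cells, an established line of primed human embryonic stem cells, 48 h after transfection with 1 of 3 fluorescein-tagged oligonucleotides at 25 nM. L1, or LINE1, is a retrotransposon repeated throughout human chromosomes. Groups were ASO-L1, an antisense oligonucleotide against L1; sO-L1, the sense oligonucleotide of L1; and ASO-Ctr, a non-targeting antisense oligonucleotide. Cells of all 3 groups also received the caspase inhibitor emricasan at 5 uM, the ROCK inhibitor Y-27632 at 10 uM and ISRIB, which blocks the integrated stress response, at 0.7 uM, all removed after 24 h, and tagged cells were sorted before RNA extraction. Each group had 2 libraries, and the labels do not say that these are separate cultures. The p-values thus measure a spread between libraries, which may be technical, and that spread was estimated mostly from all genes together. The medium at collection is named as mTeSR in one place and RSeT in another and is not settled here.

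In mammals, DNMT3A and DNMT3B place methyl groups on unmethylated CpG sites, and DNMT1 copies existing methylation onto the new strand after replication, brought there by UHRF1, which binds hemimethylated DNA. The TET enzymes oxidise 5-methylcytosine, and TDG excises oxidised forms so that base excision repair can put back an unmodified cytosine. MBD2 reads methylated CpG and recruits the NuRD repressor complex. Primed human pluripotent cells are known for high DNMT3B and TET1, and for a genome that is heavily methylated. The measurements below are of RNA, not of methylation or protein. The level of L1 itself was not analysed here.

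Library totals ranged from 18897936 to 67192937 counts, with replicate 1 the shallower library in every group. The 7 pluripotency markers were all tested, and their TMM-scaled CPM, the read count relative to library size, summed to 5359 to 5642 in ASO-L1, 5075 to 5573 in sO-L1 and 5011 to 5545 in ASO-Ctr. Among them, SOX2 rose by 0.20 and 0.24 on the log2 scale in ASO-L1 against sO-L1 and against ASO-Ctr, NANOG fell by 0.17 and 0.22, and SALL4 rose by 0.15 against sO-L1, all with the block. POU5F1, LIN28A, TDGF1 and DPPA4 were not called. The 4 primed-state markers in the table summed to 1614 to 1641 CPM in ASO-L1, 1698 to 1720 CPM in sO-L1 and 1698 to 1711 CPM in ASO-Ctr. The 7 naive-state markers summed to 5.30 to 5.53 CPM in ASO-L1, 3.96 to 4.46 CPM in sO-L1 and 5.20 to 5.32 CPM in ASO-Ctr. Neural markers summed to 57.6 to 59.7, 58.4 to 61.1 and 62.0 to 65.6 CPM in ASO-L1, sO-L1 and ASO-Ctr, mesendoderm markers to 3.49 to 3.88, 5.05 to 5.16 and 4.46 to 4.68 CPM, fibroblast markers to 164 to 171, 134 to 160 and 136 to 155 CPM, and trophoblast markers to 9.96 to 10.5, 10.5 to 10.9 and 9.56 to 10.7 CPM. Some markers of other cells were at or near 0: the trophoblast marker VGLL1 had 0 counts in every library, the fibroblast marker DCN 0 to 1, LUM 0 to 3 and the naive marker KLF17 0 to 1. Others were well above 0 in all groups: COL1A2 of the fibroblast list lay at 85.5 to 108 CPM, COL1A1 at 42.9 to 77.1 CPM, MAP2 of the neural list at 46.3 to 54.1 CPM and KRT7 of the trophoblast list at 9.56 to 10.9 CPM. Of the primed markers, ZIC2 rose by 0.25 and 0.24 on the log2 scale in ASO-L1 against sO-L1 and against ASO-Ctr. DUSP6 fell by 0.25 and 0.19, SFRP2 by 0.22 and 0.22, and THY1 by 0.13, called against ASO-Ctr only. Against ASO-Ctr 25.0% of the 4 were called higher and 75.0% lower, where 9.88% and 11.6% of all genes were. These calls were made with the block, and 0 of the 4 were called without it. Of the fibroblast markers, COL1A1 rose by 0.63 and 0.61 (edgeR adjusted p = 0.0290 and 0.0320 without the block). Of the mesendoderm markers, FOXA2 fell by 1.13 and 0.93 in ASO-L1 against sO-L1 and against ASO-Ctr (edgeR adjusted p = 0.0213 and 0.0428 without the block), and EOMES rose by 1.13 and 1.5, with 0 to 38 counts per library and no call without the block. The pluripotency markers of the labelled cell type were all present, and the part of the pluripotency, primed, mesendoderm and fibroblast shifts in the results below was not tested.

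The 9 genes lay far apart in abundance. Per kilobase of exon, DNMT3B was the highest at 339 CPM per kb over the 6 libraries (range 293 to 367), followed by DNMT1 at 51.6 (48.5 to 53.4) and TDG at 50.2 (46.6 to 53.8), whose ranges overlapped. DNMT3A followed at 21.4 CPM per kb (20.7 to 22). UHRF1 at 14.3 (12.6 to 15.9) and TET1 at 13 CPM per kb (10.8 to 14.5) overlapped each other. TET3 lay at 5.16 CPM per kb (4.23 to 5.72), MBD2 at 3.82 (3.45 to 4.05) and TET2 at 0.47 (0.411 to 0.528). By CPM, without regard to length, DNMT3B stood at percentile 99.8 of the genes tested and TET2 at percentile 45.5. TET2 was thus the member with the fewest reads behind it, 140 to 510 counts per library, against 31113 to 113455 counts for DNMT3B.

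Across the groups, the differences were small. In ASO-L1 cells, DNMT3B and UHRF1 were lower than in either sO-L1 or ASO-Ctr cells, by 10.5% to 14.5%. TET3 and TET2 were higher in ASO-L1 than in sO-L1 cells, 1.27-fold and 1.23-fold, and TDG was 13.2% higher in ASO-L1 than in ASO-Ctr cells. In sO-L1 cells, TET3 was 14.4% lower than in ASO-Ctr cells. DNMT1, DNMT3A, TET1 and MBD2 did not pass the test in any pair of groups. These calls were made at an adjusted p under 0.05 with edgeR's quasi-likelihood test, Benjamini-Hochberg adjustment over all 19156 genes, and the replicate number as a block. Without the block, 0 of the 9 genes were called in any comparison by the same test, while 4, 2 and 1 of them had an unadjusted p under 0.05 in the comparisons of ASO-L1 with sO-L1, of ASO-L1 with ASO-Ctr and of sO-L1 with ASO-Ctr. The replicate numbers are not shown to mark shared cultures or days, so every call of the 9 genes rests on the choice to use them as a block. In bulk RNA of this kind, fewer cells that express a gene and less of its RNA per cell cannot be told apart.

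**Figure D1:**
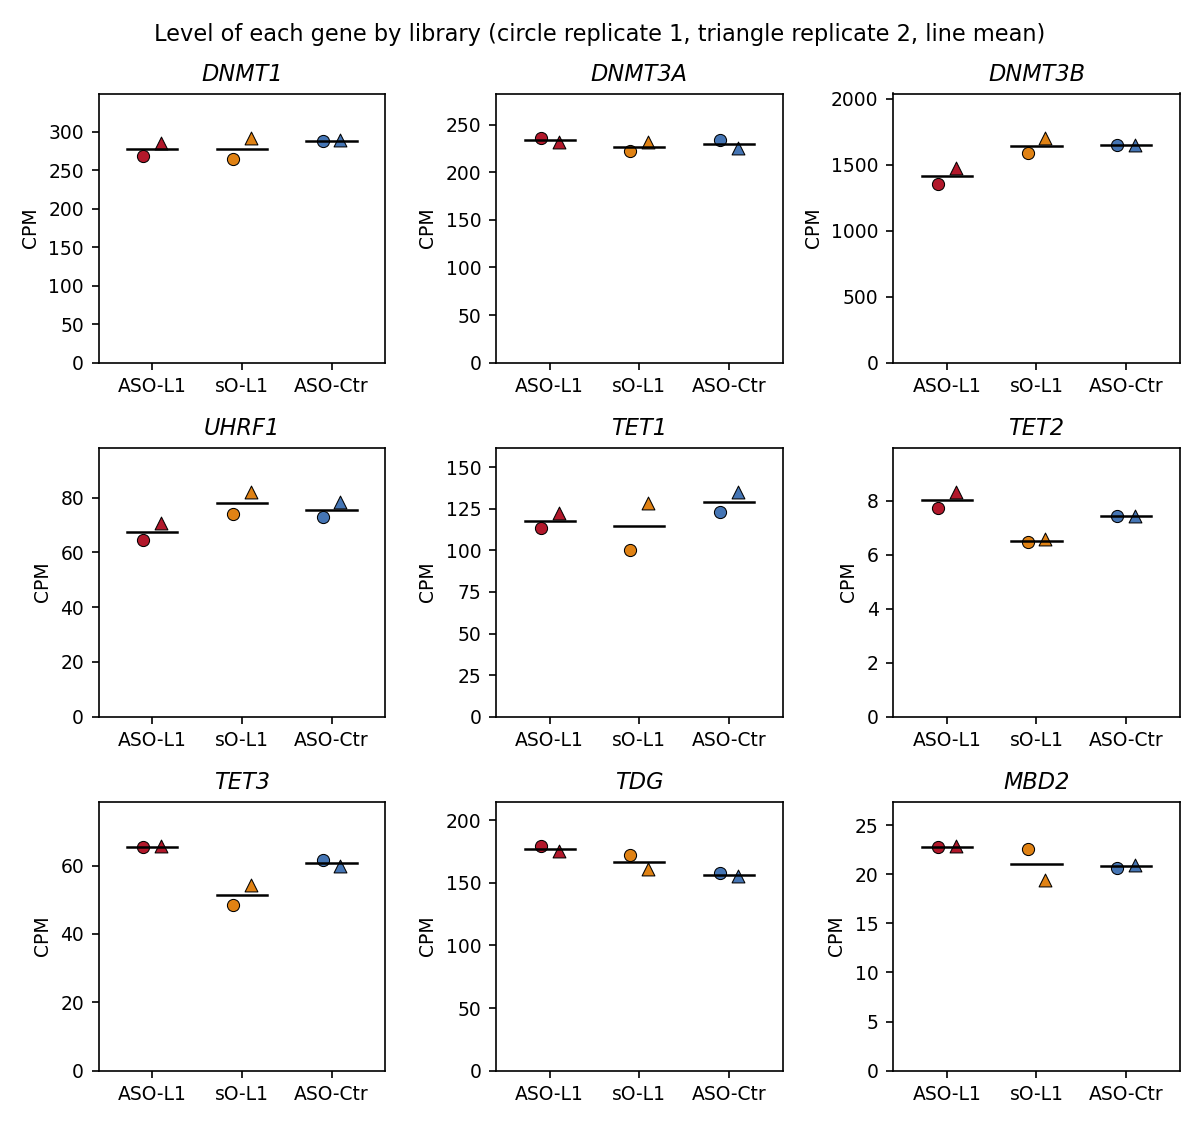
CPM of the 9 genes in each library (y axis, linear from 0, a separate scale per panel), with ASO-L1 at the left, sO-L1 in the middle and ASO-Ctr at the right; circles are replicate 1, triangles replicate 2 and lines the mean of 2 libraries. DNMT3B lies at 1356 and 1473 CPM in ASO-L1, below all 4 other libraries, and TET3 is lowest in the 2 sO-L1 libraries.

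Of the 9 genes, 4 were called in ASO-L1 against sO-L1 (2 higher, 2 lower), where 23.0% of all genes were called, 10.3% higher and 12.7% lower. In ASO-L1 against ASO-Ctr, 3 were called (1 higher, 2 lower), where 21.5% of all genes were called, 9.88% higher and 11.6% lower. In sO-L1 against ASO-Ctr, 1 was called, lower, where 1.72% of all genes were called, 0.658% higher and 1.06% lower. Counts this small do not set the 9 genes apart from the rest of the transcriptome in any of the 3 comparisons. In sO-L1 against ASO-Ctr, 0 of the 9 were called by DESeq2, by limma-voom or without the block. The 3 comparisons share libraries: both ASO-L1 comparisons use the same ASO-L1 cells, and each of the other groups also enters 2 comparisons. Without the block, 1.84%, 1.95% and 0% of all genes were called in the 3 comparisons, with 2.97% of genes at an unadjusted p under 0.05 in sO-L1 against ASO-Ctr. Called genes were mostly changed by small amounts: the median absolute log2 fold change of called genes was 0.29, 0.29 and 0.25 in the 3 comparisons.

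**Figure D2:**
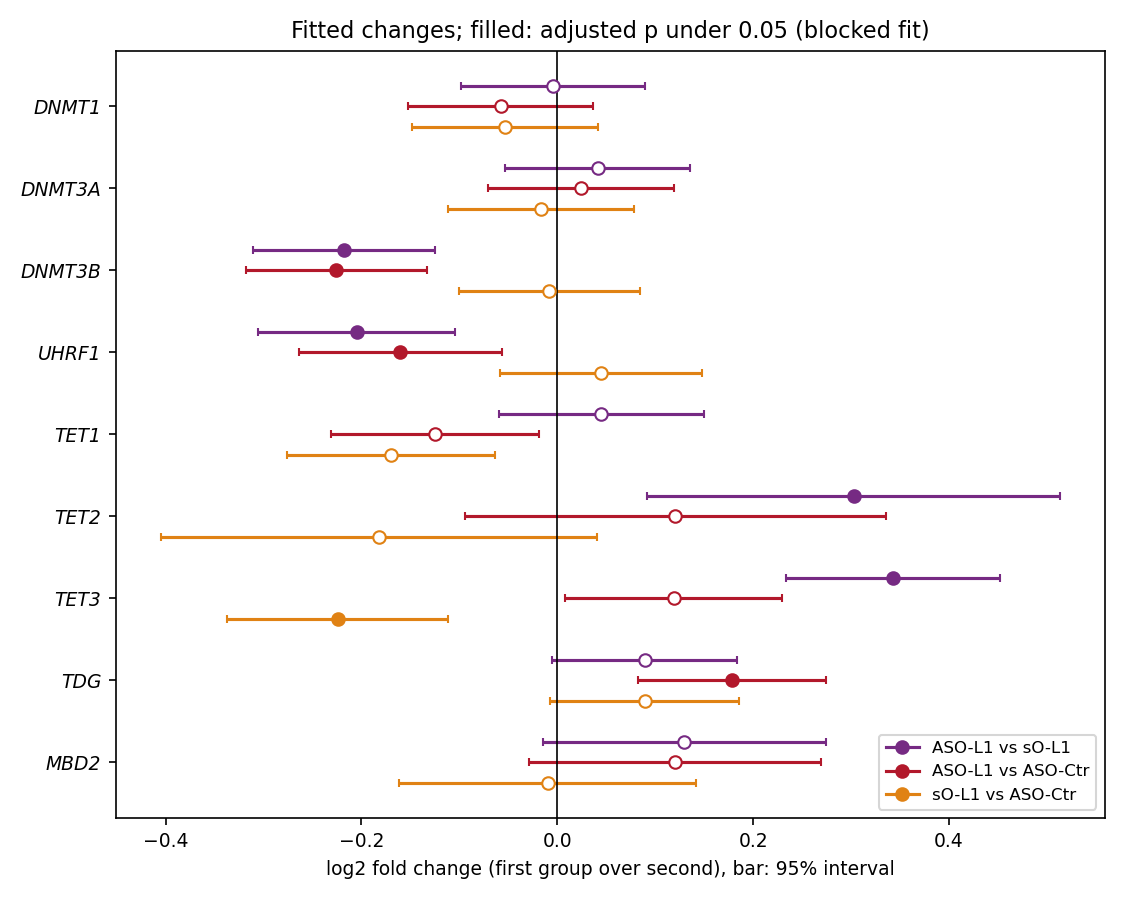
Log2 fold change of each gene (x axis) with its 95% interval from edgeR's quasi-likelihood fit with the replicate block, for the comparisons of ASO-L1 with sO-L1, of ASO-L1 with ASO-Ctr and of sO-L1 with ASO-Ctr; filled points have an adjusted p under 0.05. DNMT3B is at -0.22 and -0.23 in the ASO-L1 comparisons and at -0.01 in sO-L1 against ASO-Ctr, whereas TET3 is at 0.34, 0.12 and -0.22.

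Among the de novo writers, DNMT3B had 1356 and 1473 CPM in the 2 ASO-L1 libraries (replicates 1 and 2, the order used throughout), 1588 and 1701 CPM in the sO-L1 libraries and 1652 and 1654 CPM in the ASO-Ctr libraries. Both ASO-L1 libraries lay below all 4 others, and the sO-L1 and ASO-Ctr libraries overlapped. The log2 fold change was -0.22 ± 0.05 (SE, n = 2 libraries per group) in ASO-L1 against sO-L1, a fall of 14.0% (adjusted p = 0.000317 by edgeR's quasi-likelihood test, 0.193 without the block). Against ASO-Ctr it was -0.23 ± 0.05, 14.5% lower (adjusted p = 0.000204, 0.176 without the block). The same gene differed between sO-L1 and ASO-Ctr by -0.01, with a 95% interval of -0.10 to 0.08 (edgeR adjusted p = 0.969). Within replicate numbers, DNMT3B was lower in ASO-L1 than in sO-L1 by log2 differences of -0.23 and -0.21, and than in ASO-Ctr by -0.29 and -0.17. The call against ASO-Ctr was lost when ASO-Ctr replicate 1, the shallowest library, was left out (edgeR adjusted p = 0.0926). In the authors' deposited table, DNMT3B had a log2 fold change of -0.21 in ASO-L1 minus sO-L1, with an adjusted p of 0.000145.

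DNMT3A, the other de novo enzyme, showed no call. It had 236 and 232 CPM in ASO-L1, 222 and 231 CPM in sO-L1 and 234 and 226 CPM in ASO-Ctr. The log2 fold change was 0.04 in ASO-L1 against sO-L1 (95% interval -0.05 to 0.14) and 0.02 against ASO-Ctr (-0.07 to 0.12), so a fall of the size seen for DNMT3B lies outside both intervals. DNMT3B made up less of the reads of the de novo pair in ASO-L1: 85.2% and 86.4% of the counts of DNMT3A and DNMT3B together in ASO-L1, 87.7% and 88.0% in sO-L1, against 87.6% and 88.0% in ASO-Ctr. Exact (Clopper-Pearson) 95% binomial intervals were 86.2% to 86.6% for ASO-L1 replicate 2, the higher ASO-L1 library, and 87.2% to 87.9% for ASO-Ctr replicate 1, the lowest of the other 4. These shares are of reads, not corrected for length, and the intervals cover counting error only. DNMT3L, the catalytically inactive partner of the de novo enzymes that marks naive cells and the germ line, had 6 and 5 counts in ASO-L1, 0 and 3 counts in sO-L1, and 1 and 9 counts in ASO-Ctr, too few to test.

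In the maintenance arm, UHRF1 was called and DNMT1 was not; the difference between their changes was not tested. UHRF1 had 64.6 and 70.6 CPM in ASO-L1, 73.8 and 81.9 CPM in sO-L1 and 72.8 and 78.3 CPM in ASO-Ctr. Both ASO-L1 libraries again lay below all 4 others. UHRF1 fell in ASO-L1 by 13.2% relative to sO-L1 (log2 fold change -0.20 ± 0.05, edgeR adjusted p = 0.00182, and 0.267 without the block) and by 10.5% relative to ASO-Ctr (-0.16 ± 0.05, edgeR adjusted p = 0.0191, and 0.378 without the block). The call against sO-L1 was lost without sO-L1 replicate 2 (edgeR adjusted p = 0.0716). The call against ASO-Ctr was weaker: it was lost with DESeq2 (adjusted p = 0.0734) and in edgeR when any 1 of the 4 libraries compared was left out (adjusted p between 0.0789 and 0.162). In the authors' deposited table UHRF1 had a log2 fold change of -0.20 in ASO-L1 minus sO-L1 (adjusted p 0.00434).

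DNMT1 had 269 and 286 CPM in ASO-L1, 264 and 292 CPM in sO-L1 and 288 and 289.6 CPM in ASO-Ctr. Its ASO-L1 values lay inside the range of the sO-L1 libraries. The log2 fold change was -0.00 in ASO-L1 against sO-L1 (95% interval -0.10 to 0.09) and -0.06 against ASO-Ctr (-0.15 to 0.04), neither called. UHRF1 held 19.4% and 19.8% of the counts of UHRF1 and DNMT1 together in ASO-L1, 21.8% and 21.9% in sO-L1, against 20.2% and 21.3% in ASO-Ctr. The exact 95% binomial interval was 19.3% to 20.4% in ASO-L1 replicate 2 and 19.2% to 21.2% in ASO-Ctr replicate 1. These neighbouring values thus overlap by counting error alone. S1PR2, whose annotated span overlaps that of DNMT1 on the same strand, had 848 counts over all libraries, equal to 1.05% of those of DNMT1. Overlap of their exons was not examined.

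Since UHRF1 and DNMT1 are both known to peak in S phase, the windows around their start sites were searched for E2F-type motifs, the sites bound by factors that drive S-phase genes. The motifs were TTTCCCGC, TTTGGCGC and TTTCGCGC, on both strands, in windows from RefSeq (GRCh38.p14) that run from 250 bases before to 50 bases after each listed start. Of 35116 such windows, 961 (2.74%) held at least 1 of them. All 9 genes had windows, 20 in all, and 3 windows of 2 genes, DNMT1 and UHRF1, held a match, 1 each and with no overlap between motifs. These 3 are shown as the windows of the maintenance pair that hold a motif, TTTCGCGC in DNMT1 and at the second UHRF1 start and TTTCCCGC at the first; capitals mark the motif. The third listed start of UHRF1 has none of the motifs in its window. The DNMT1 window is at chr19:10194904-10195203 on the minus strand, with 30 CpG, and its motif begins 2 bases before the listed start. The windows of the first and second listed starts of UHRF1 are at chr19:4909251-4909550 and chr19:4909894-4910193 on the plus strand, with 36 and 40 CpG against a median of 14 over all windows, and their motifs begin 14 and 160 bases before the start.
DNMT1: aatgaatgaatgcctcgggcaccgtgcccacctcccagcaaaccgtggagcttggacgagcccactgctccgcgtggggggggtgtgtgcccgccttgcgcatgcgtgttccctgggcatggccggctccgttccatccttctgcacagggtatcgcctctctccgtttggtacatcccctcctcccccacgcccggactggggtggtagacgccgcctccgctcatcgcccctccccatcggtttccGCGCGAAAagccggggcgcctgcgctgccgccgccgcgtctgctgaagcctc
UHRF1 start 1: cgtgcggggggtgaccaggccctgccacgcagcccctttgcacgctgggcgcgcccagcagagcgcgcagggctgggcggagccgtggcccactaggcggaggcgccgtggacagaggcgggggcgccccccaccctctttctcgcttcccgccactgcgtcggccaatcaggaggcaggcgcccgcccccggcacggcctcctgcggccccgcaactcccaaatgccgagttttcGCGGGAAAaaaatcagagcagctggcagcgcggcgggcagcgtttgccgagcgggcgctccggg
UHRF1 start 2: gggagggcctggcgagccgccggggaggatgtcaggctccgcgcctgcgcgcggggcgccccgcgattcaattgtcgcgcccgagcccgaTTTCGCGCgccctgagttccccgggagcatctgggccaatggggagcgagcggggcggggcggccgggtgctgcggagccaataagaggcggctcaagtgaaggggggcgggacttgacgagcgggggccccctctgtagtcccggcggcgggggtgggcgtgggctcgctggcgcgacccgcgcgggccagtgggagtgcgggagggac
The capitals of DNMT1 and of the first UHRF1 start read as the reverse complement of TTTCGCGC and TTTCCCGC, and those of the second UHRF1 start as TTTCGCGC itself. A match is a run of letters and does not show that a factor binds there.

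Replication genes were set beside UHRF1. All 34 genes of a list of replication factors were tested, and 0 rose and 11 fell in ASO-L1 against sO-L1 (32.4% lower, where 12.7% of all genes were lower), with a median log2 fold change of -0.09 against -0.00 over all genes. In ASO-L1 against ASO-Ctr 0 rose and 4 fell (11.8%, close to the 11.6% of all genes called lower; median -0.03), and in sO-L1 against ASO-Ctr 0 of 34 were called by edgeR, DESeq2 or limma-voom (median 0.04), with 5 at an unadjusted p under 0.05. Without the block, 2 and 1 genes of the list were called lower in the ASO-L1 comparisons. POLA2 encodes the accessory subunit of DNA polymerase alpha, which works with primase to start DNA synthesis. It had 36.8 and 39.8 CPM in ASO-L1, 58.8 and 59.1 CPM in sO-L1 and 61.4 and 60.2 CPM in ASO-Ctr. Its log2 fold change was -0.62 ± 0.05 against sO-L1 (edgeR adjusted p = 1.5e-12, and 0.00795 without the block) and -0.66 ± 0.06 against ASO-Ctr (edgeR adjusted p = 4.17e-13, and 0.00631 without the block), so it stayed called in both fits. GINS2, of the replicative helicase, was at -0.49 ± 0.05 and -0.39 ± 0.05 in the same comparisons, and was called without the block against sO-L1 (edgeR adjusted p = 0.0247) but not against ASO-Ctr (0.0551). The helicase subunit MCM6 fell by 0.24 on the log2 scale against sO-L1, with the block, and stood at -0.10 against ASO-Ctr, not called (edgeR adjusted p = 0.132); in sO-L1 against ASO-Ctr it stood at 0.14, not called. The ribonucleotide reductase subunit RRM1 fell by 0.21 against sO-L1 and by 0.14 against ASO-Ctr with the block. The part of the replication genes in the UHRF1 result was not tested.

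**Figure D3:**
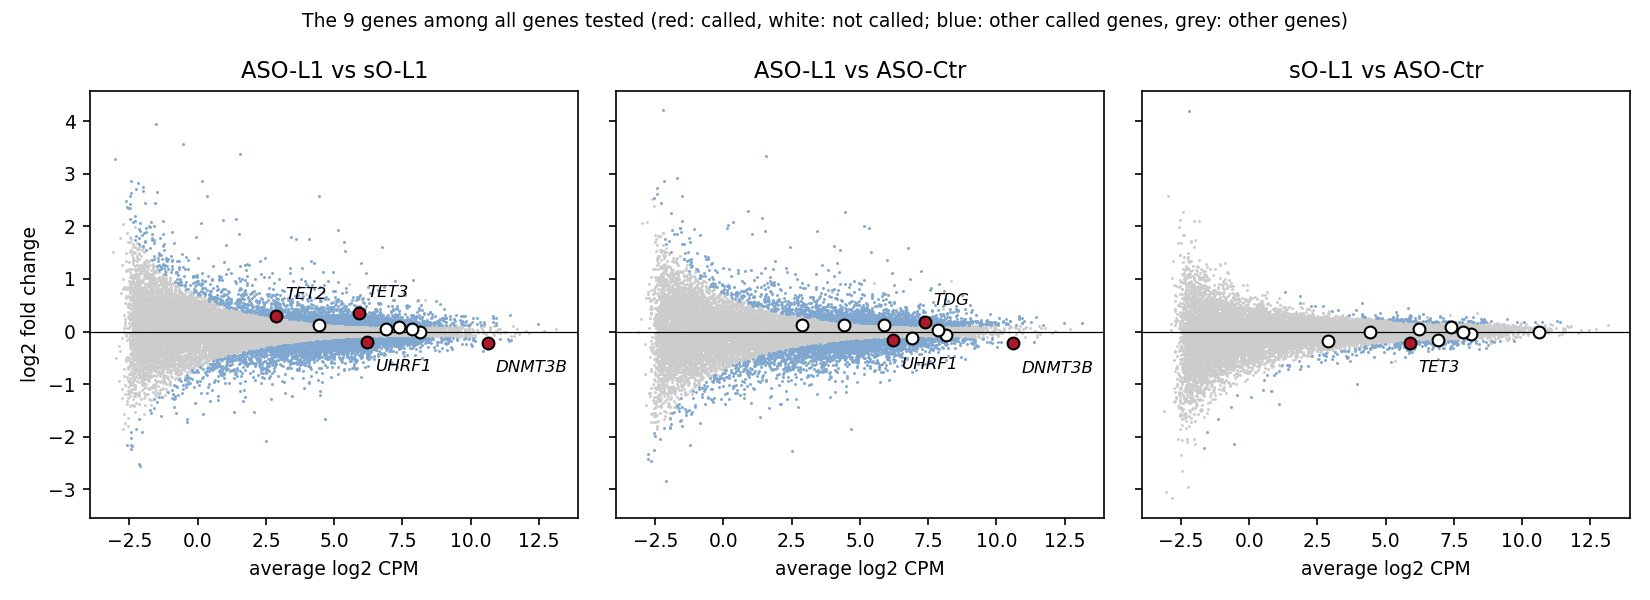
Log2 fold change (y axis) against average log2 CPM (x axis) for all 19156 genes tested, with a panel for each of the 3 comparisons; blue points are called genes, grey points are not, and the 9 genes are marked in red where called and in white where not. The 9 genes lie between -0.23 and 0.34 on the y axis, and DNMT3B sits at the far right of each panel.

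Among the erasers, TET3, which acts in the zygote in mammals, gave the largest difference of the 9 genes. It had 65.4 and 65.6 CPM in ASO-L1, 48.5 and 54.4 CPM in sO-L1 and 61.5 and 59.8 CPM in ASO-Ctr. The 3 groups did not overlap, with ASO-L1 highest and sO-L1 lowest. TET3 rose 1.27-fold in ASO-L1 against sO-L1 (log2 fold change 0.34 ± 0.05, edgeR adjusted p = 2.99e-06, and 0.0649 without the block), with log2 differences of 0.43 and 0.27 within replicate numbers. Against ASO-Ctr it stood at 0.12 ± 0.06 (95% interval 0.01 to 0.23), which was not called (edgeR adjusted p = 0.122), and lay between 0.048 without ASO-Ctr replicate 2 and 0.17 without ASO-Ctr replicate 1. In sO-L1 against ASO-Ctr it fell by 14.4% (-0.22 ± 0.06, edgeR adjusted p = 0.0250, and 1 without the block). The same sO-L1 libraries enter the comparison of ASO-L1 with sO-L1. The difference there is thus not independent of this call in sO-L1 against ASO-Ctr. That last call was lost with DESeq2 (adjusted p = 0.0938), with limma-voom (adjusted p = 0.0682), and in edgeR without sO-L1 replicate 1 (1) or ASO-Ctr replicate 1 (0.456). In the authors' deposited table, TET3 had a log2 fold change of 0.35 in ASO-L1 minus sO-L1 (adjusted p 1.77e-05).

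TET2, a tumour suppressor of the blood lineage and the least abundant of the genes, had 7.74 and 8.31 CPM in ASO-L1, 6.46 and 6.58 CPM in sO-L1 and 7.43 and 7.43 CPM in ASO-Ctr. Its order over the groups was that of TET3. The log2 fold change was 0.30 ± 0.10 in ASO-L1 against sO-L1 (edgeR adjusted p = 0.0298, and 0.254 without the block), 0.12 ± 0.11 in ASO-L1 against ASO-Ctr and -0.18 ± 0.11 in sO-L1 against ASO-Ctr, the last 2 not called. The call was lost with DESeq2 (adjusted p = 0.201) and in edgeR when any 1 of the 4 libraries compared was left out (adjusted p between 0.0879 and 0.271). The authors' deposited table gave 0.31 for TET2 (adjusted p 0.0433).

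TET1, the most abundant TET gene and the one most tied to pluripotent cells, had 114 and 122 CPM in ASO-L1, 100.2 and 129 CPM in sO-L1 and 123 and 135 CPM in ASO-Ctr. The 2 sO-L1 libraries spanned all of the ASO-L1 range. No pair of groups was called: the log2 fold change was 0.05 ± 0.05 in ASO-L1 against sO-L1, -0.12 ± 0.05 in ASO-L1 against ASO-Ctr (edgeR adjusted p = 0.0850) and -0.17 ± 0.05 in sO-L1 against ASO-Ctr (edgeR adjusted p = 0.0932). Within replicate numbers the first difference had opposite signs, 0.18 and -0.08. A test of any difference among the 3 groups gave an adjusted p of 0.0306 for TET1 in edgeR with the block. The comparison of sO-L1 with ASO-Ctr crossed the threshold when only its own 4 libraries were fitted (edgeR adjusted p = 0.0345), and without ASO-L1 replicate 1 (0.0399), ASO-L1 replicate 2 (0.0376) or sO-L1 replicate 2 (0.0212). That of ASO-L1 with ASO-Ctr crossed it without ASO-L1 replicate 1 (edgeR adjusted p = 0.0295). COX20P1, a pseudogene whose span overlaps that of TET1, had 1179 counts over all libraries, equal to 3.35% of those of TET1.

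Over the 3 TET genes together, the shares of reads of TET1 and TET3 in ASO-L1 lay apart from those in the other groups, which is given as a description with no test. TET1 held 60.8% and 62.3% of TET counts in ASO-L1, 64.6% and 67.9% in sO-L1, against 64.0% and 66.8% in ASO-Ctr. TET3 held 35.0% and 33.5% of them in ASO-L1, 31.3% and 28.7% in sO-L1, against 32.1% and 29.6% in ASO-Ctr. The 2 ASO-L1 libraries had the lowest TET1 shares and the highest TET3 shares of the 6, while in these shares sO-L1 and ASO-Ctr overlapped. Of the TET3 shares, the exact 95% binomial interval was 32.6% to 34.3% in ASO-L1 replicate 2 and 30.6% to 33.6% in ASO-Ctr replicate 1. For TET1 the intervals of these libraries were 61.4% to 63.2% and 62.4% to 65.6%. At the depth of the shallowest library the neighbouring values thus overlap for both genes.

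TDG, the glycosylase that removes oxidised methylcytosine, had 179 and 176 CPM in ASO-L1, 172 and 161 CPM in sO-L1 and 158 and 155 CPM in ASO-Ctr. The groups did not overlap and followed the order ASO-L1, sO-L1, ASO-Ctr. TDG rose 13.2% in ASO-L1 against ASO-Ctr (log2 fold change 0.18 ± 0.05, edgeR adjusted p = 0.00431, and 0.227 without the block), by 0.18 within each replicate number. The steps on either side of sO-L1 were not called: 0.09 ± 0.05 in ASO-L1 against sO-L1 (edgeR adjusted p = 0.178) and 0.09 ± 0.05 in sO-L1 against ASO-Ctr (edgeR adjusted p = 0.444). The call against ASO-Ctr was lost without ASO-L1 replicate 2 (edgeR adjusted p = 0.0753) or ASO-Ctr replicate 1 (0.0866).

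MBD2, the reader in the set, had 22.7 and 22.8 CPM in ASO-L1, 22.6 and 19.4 CPM in sO-L1 and 20.6 and 21.0 CPM in ASO-Ctr. The log2 fold change was 0.13 in ASO-L1 against sO-L1 (95% interval -0.01 to 0.27), 0.12 against ASO-Ctr (-0.03 to 0.27) and -0.01 in sO-L1 against ASO-Ctr (-0.16 to 0.14). Leaving out 1 library moved the first value between 0.0044 (without sO-L1 replicate 2) and 0.24 (without sO-L1 replicate 1), the second between 0.055 (without ASO-L1 replicate 2) and 0.20 (without ASO-Ctr replicate 2), and the third between -0.11 and 0.13. None was called, and the intervals leave room for a rise of the size seen for TDG in both ASO-L1 comparisons.

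Over all 9 genes, the libraries of 2 groups did not overlap for 7 genes in ASO-L1 against sO-L1, where 47.1% of all genes did not, for 8 genes in ASO-L1 against ASO-Ctr (48.6% of all genes) and for 3 genes in sO-L1 against ASO-Ctr (29.7%). A lack of overlap between 2 libraries and 2 others was thus common across the transcriptome. The genes most like TET3 and DNMT3B in pattern, the 2 members with the smallest p in the test of any difference, were sought among 10290 genes by Pearson's r of log2 CPM over the 6 libraries, as a description. LRIG2 (r = 0.994), FOXK2 (0.987) and PLCD4 (0.985) were nearest to TET3, and 57 genes passed 0.95. BACE2 (0.996) and NT5C2 (0.996) were among the nearest to DNMT3B, and 316 genes passed 0.95. The 6 points share their groups and replicate numbers.

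Of 14 listed partners and antagonists of the writers 13 were tested, and 1 rose and 1 fell in ASO-L1 against sO-L1 (15.4% called, against 23.0% of all genes; median log2 fold change 0.10, against -0.00 over all genes). DPPA3, an oocyte factor that was also among the naive-state markers and keeps UHRF1 off chromatin in mouse, had 2.48 and 2.33 CPM in ASO-L1, 1.35 and 1.12 CPM in sO-L1 and 2.23 and 1.60 CPM in ASO-Ctr. It rose by 0.97 ± 0.20 on the log2 scale against sO-L1 (edgeR adjusted p = 0.000165, and 0.0661 without the block), with 42 to 135 counts per library over the 3 groups, and stood at 0.39 against ASO-Ctr (edgeR adjusted p = 0.149). PCNA, the sliding clamp to which DNMT1 binds, fell by 0.15 against sO-L1 (edgeR adjusted p = 0.0196, and 0.526 without the block) and stood at -0.02 against ASO-Ctr. TRDMT1, an RNA methyltransferase of the DNMT family, and SMCHD1, a chromatin protein of X inactivation, stood at 0.17 and 0.11 against sO-L1 and were not called. In ASO-L1 against ASO-Ctr 1 gene of the list was called (7.69%, against 21.5% of all genes): UHRF2, a paralog of UHRF1, at 0.14 (edgeR adjusted p = 0.0426, and 0.445 without the block), where DESeq2 and limma-voom called 0. In sO-L1 against ASO-Ctr 1 was called (7.69%, against 1.72% of all genes): QSER1, which guards bivalent promoters from methylation, at -0.17 (edgeR adjusted p = 0.0405, and 1 without the block). UHRF2 and QSER1 were picked for mention after their values were seen.

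Genes of base excision and of the TET reaction moved in both directions, with more lower than higher. By direction, 41.2% were called lower and 17.6% higher in ASO-L1 against sO-L1, where 12.7% and 10.3% of all genes were. Against ASO-Ctr 29.4% were called lower and 17.6% higher, where 11.6% and 9.88% of all genes were. Of 18 listed genes 17 were tested, and 3 rose and 7 fell in ASO-L1 against sO-L1 (58.8% called, against 23.0% of all genes; median log2 fold change -0.14). Against ASO-Ctr 3 rose and 5 fell (47.1%, against 21.5% of all genes; median -0.12), and 0 were called in sO-L1 against ASO-Ctr by edgeR, DESeq2 or limma-voom (median 0.02), with 1 at an unadjusted p under 0.05. GADD45A, a stress-induced protein that has been tied to active demethylation, had 40.2 and 32.6 CPM in ASO-L1, 26.0 and 21.3 CPM in sO-L1 and 21.8 and 20.6 CPM in ASO-Ctr. It rose by 0.62 ± 0.07 against sO-L1 (edgeR adjusted p = 2.17e-10, and 0.0449 without the block) and by 0.75 ± 0.07 against ASO-Ctr (edgeR adjusted p = 3.72e-12, and 0.0228 without the block). GADD45A is also known as a target of p53 and of stress responses. IDH2, the mitochondrial enzyme that makes 2-oxoglutarate, the co-substrate of the TET enzymes, had 36.4 and 35.9 CPM in ASO-L1, 51.9 and 49.2 CPM in sO-L1 and 56.6 and 52.6 CPM in ASO-Ctr. It fell by 0.48 ± 0.06 against sO-L1 (edgeR adjusted p = 2.45e-09, and 0.0213 without the block) and by 0.59 ± 0.06 against ASO-Ctr (edgeR adjusted p = 1.61e-11, and 0.0119 without the block). These 2 genes passed with and without the block, which none of the 9 writers and erasers did. OGT, the O-GlcNAc transferase that binds TET proteins, rose by 0.31 and 0.26 in the same comparisons with the block, and the glycosylase NEIL3 fell by 0.44 and 0.41. Neither was called without the block.

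**Figure D4:**
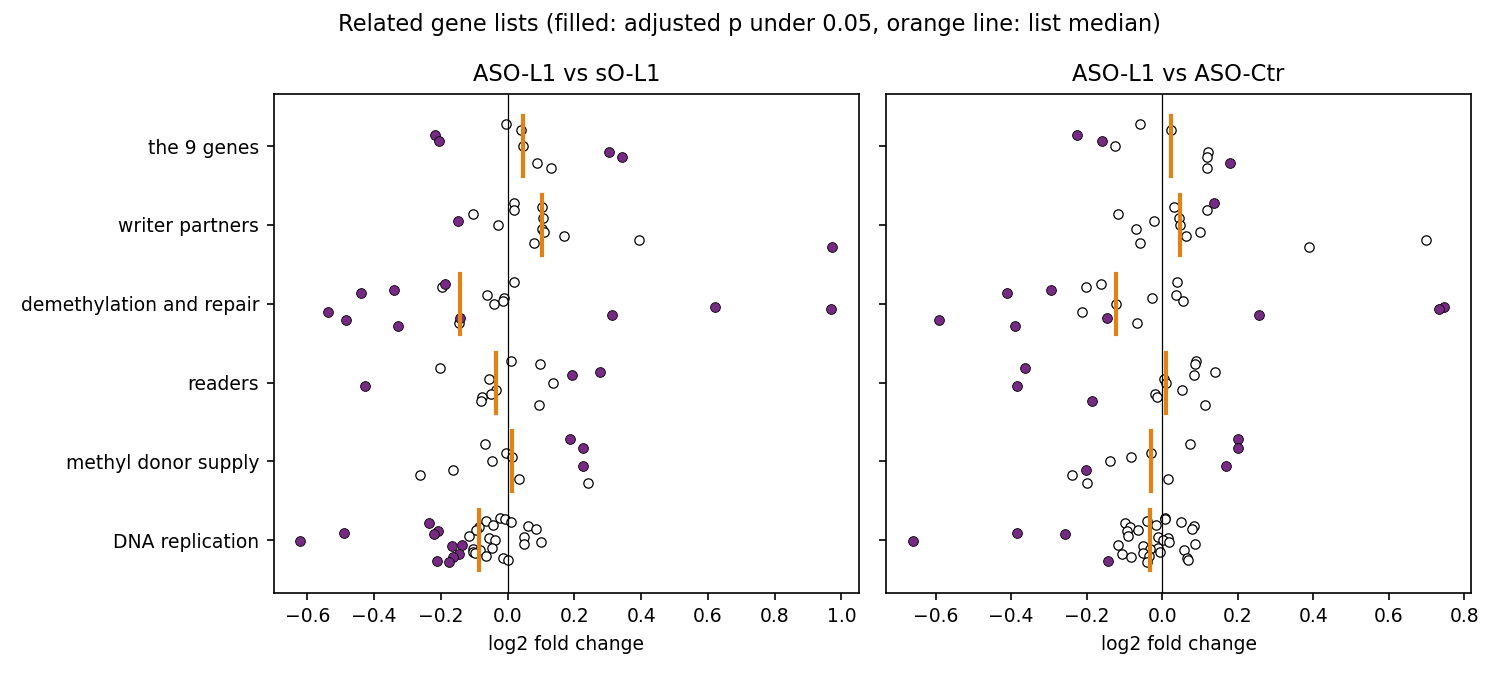
Log2 fold change of every tested gene of each list (points) in ASO-L1 against sO-L1 and in ASO-L1 against ASO-Ctr; filled points have an adjusted p under 0.05 with the replicate block and orange marks are the median of the list. In ASO-L1 against sO-L1 the replication list has its median at -0.09, with 28 genes below 0 and 6 above. The demethylation and repair list has 13 genes below 0 and 4 above in that comparison.

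A list of 13 proteins that bind methylated or unmethylated CpG, called readers here, was tested, so not all of them read methylation. It gave 2 higher and 1 lower call in ASO-L1 against sO-L1 (23.1%, where 23.0% of all genes were called, median log2 fold change -0.04). In ASO-L1 against ASO-Ctr it gave 0 higher and 3 lower (23.1%, where 21.5% of all genes were called, median 0.01). With the directions pooled, both shares are close to those over all genes. By direction, 23.1% of the readers were lower against ASO-Ctr, where 11.6% of all genes were. None was higher there, where 9.88% of all genes were. The 3 called lower there were ZBTB38, MBD5 (log2 fold change -0.36) and KDM2A (-0.19). MBD5 and KDM2A are named because of their calls. In sO-L1 against ASO-Ctr 0 of 13 readers were called by edgeR, DESeq2 or limma-voom (median 0.02), with 1 at an unadjusted p under 0.05. ZBTB38, a zinc finger protein that binds methylated DNA, had 11.6 and 11.2 CPM in ASO-L1, 15.2 and 15.4 CPM in sO-L1 and 15.2 and 14.7 CPM in ASO-Ctr. It fell by 0.43 ± 0.08 against sO-L1 (edgeR adjusted p = 8.08e-05, and 0.0629 without the block) and by 0.39 against ASO-Ctr. MBD6, of the methyl-CpG binding domain family, rose by 0.28 against sO-L1 (edgeR adjusted p = 0.00232, and 0.237 without the block) and stood at 0.14 against ASO-Ctr, where it was not called. ZBTB4 stood at 0.14 against sO-L1 and was not called.

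For the supply of the methyl donor S-adenosylmethionine, 3 of 11 genes rose and 0 fell in ASO-L1 against sO-L1. That was 27.3% called, against 23.0% of all genes, with a median log2 fold change of 0.01. By direction, 27.3% of the list was higher in each ASO-L1 comparison, where 10.3% and 9.88% of all genes were higher against sO-L1 and ASO-Ctr. Called lower against ASO-Ctr were 9.09% of the list and 11.6% of all genes. Against ASO-Ctr 3 rose and 1 fell (36.4%, against 21.5% of all genes; median -0.03), and 0 were called in sO-L1 against ASO-Ctr by edgeR, DESeq2 or limma-voom (median -0.03), with 1 at an unadjusted p under 0.05. AHCY, which clears the inhibitory product S-adenosylhomocysteine, rose by 0.23 and 0.20, MTRR, the reductase that keeps methionine synthase active, by 0.23 and 0.17, and MAT2A, which makes S-adenosylmethionine, by 0.19 and 0.20. These values are log2 fold changes against sO-L1 and ASO-Ctr with the block, and without it none of the list was called.

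Germline genes whose promoters are methylated and silent in most somatic cells were set beside these values as a readout at the RNA level. Of 16 listed genes 4 could be tested, and 0 were called in any comparison by edgeR with or without the block, by DESeq2 or by limma-voom, with 1 at an unadjusted p under 0.05 in ASO-L1 against sO-L1 and 0 in the others. The 16 genes summed to 2.98 and 3.46 CPM in ASO-L1, 3.61 and 3.74 CPM in sO-L1 and 3.13 and 3.18 CPM in ASO-Ctr. DAZL, an RNA-binding protein of germ cells, had 0.987 and 1.23 CPM in ASO-L1, 1.53 and 1.54 CPM in sO-L1 and 1.70 and 1.38 CPM in ASO-Ctr, with a log2 fold change of -0.46 against sO-L1 that was not called (edgeR adjusted p = 0.136). STK31, SYCP1 and SYCP3 stood at 0.72, -0.49 and -0.20 against sO-L1 with 4 to 51 counts per library. ASZ1 and RPL10L had 0 counts in every library, where 3 counts would be 0.0437 to 0.159 CPM.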

How the data were processed

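Poly(A) RNA of 6 libraries was sequenced with a directional kit. Per the submitters' processing notes, the tools were Trim Galore 0.4.0 for trimming, TopHat2 2.0.13 for mapping (build hg19) and featureCounts (Subread 1.5.0) for counting. Raw counts by gene symbol were deposited, after removal of duplicate reads by the name of the table. Since no strand setting is stated, overlapping and antisense genes are uncertain. Batch-corrected, normalized log2 values form a further table deposited by the authors, and their deposited comparison table gives log2 fold changes, p-values and scores for ASO-L1 minus sO-L1.

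The 9 genes and all lists were chosen with earlier results of these data known. From the table's 53807 entries, 92 spike-ins were left out, and 19156 of 53715 genes passed filterByExpr (minimum count 10, minimum total 15). TMM scaling (factors 0.983 to 1.02) was followed by a fit in R 4.3.3 with edgeR 4.0.16 (robust quasi-likelihood; group and replicate number as terms; all 6 libraries). This left 2 residual degrees of freedom, a biological coefficient of variation of 0.0454 and, as the median, 44.8 prior degrees of freedom. The replicate number was included because a batch-corrected table is listed in the labels. In the deposited log2 table the replicate means lay within 0.02 for 82.6% of 16670 genes. Deviations between replicates correlated at 0.278, 0.191 and 0.258 between pairs of groups, but there are 2 numbers and no label says what they mark, so the pairing is not established. 0 pairs of libraries were identical.

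The threshold for a call was 0.05 on the p adjusted by Benjamini-Hochberg. Levels are TMM-scaled CPM; correlations used log2 CPM with a prior count of 2 and genes of average log2 CPM at least 3. Lengths per kb are exon unions of a GRCh38 annotation, which may differ from that used in counting, and no hg19 coordinates are given. All 9 genes are named, with up to 4 tested genes of smallest p per list in ASO-L1 against sO-L1, and the 3 genes most like each of 2 members. Some genes that this rule names are not reported here. Alternatives were DESeq2 1.42.0 and its size factors, limma-voom (limma 3.58.1), no filter, no block, the 4 libraries compared, thinning to the shallowest library, and leaving out each library. The pipeline was tested on simulated data.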

Additional observations from a re-analysis of the deposited data

How the results depend on the processing

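With 2 libraries per group, the calls depended most on the replicate block. Without it, calls over all genes numbered 175 higher and 177 lower in ASO-L1 against sO-L1, 173 and 201 in ASO-L1 against ASO-Ctr, and 0 and 0 in sO-L1 against ASO-Ctr, and 0 of the 9 genes were called in any direction. The values themselves barely moved. In ASO-L1 against sO-L1 the log2 fold changes without the block were -0.22 for DNMT3B, -0.21 for UHRF1, 0.30 for TET2 and 0.35 for TET3. In ASO-L1 against ASO-Ctr they were -0.22 for DNMT3B, -0.16 for UHRF1 and 0.18 for TDG. In sO-L1 against ASO-Ctr TET3 was at -0.23, and MBD2, near 0, turned to 0.0086.

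DESeq2 size factors changed no call of the 9 genes. DESeq2 itself called 1051 genes higher and 1304 lower in ASO-L1 against sO-L1, 1146 and 1290 in ASO-L1 against ASO-Ctr, and 54 and 71 in sO-L1 against ASO-Ctr. Of the 9 it called 1 higher and 2 lower in the first, 1 higher and 1 lower in the second and 0 in the third, losing TET2 (0.30), UHRF1 (-0.16) and TET3 (-0.23). Limma-voom called 62 genes higher and 106 lower in sO-L1 against ASO-Ctr and 0 of the 9, with TET3 at -0.22. Without the filter DNMT1, near 0, turned to 0.0054 in ASO-L1 against sO-L1. With the 4 libraries compared, 229 genes were higher and 2 of the 9 lower in sO-L1 against ASO-Ctr, TET1 at -0.17 among them. At the depth of the shallowest library, 1 of the 9 was higher and 1 lower in ASO-L1 against sO-L1, with UHRF1 at -0.15 (adjusted p = 0.0614) and TET2 at 0.29 (0.141), both by edgeR. At that depth 2 were lower in sO-L1 against ASO-Ctr, with TET1 at -0.21, and UHRF1 and DNMT3A, near 0, turned to -0.010 and 0.014. The cause was not tested.

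Leaving out each library gave 773 to 2087 genes higher and 1029 to 2615 lower in ASO-L1 against sO-L1, 1058 to 1706 and 1278 to 1987 in ASO-L1 against ASO-Ctr, and 2 to 217 and 7 to 279 in sO-L1 against ASO-Ctr. Of the 9, 1 to 2 were higher and 1 to 2 lower in the first, 0 to 1 and 0 to 2 in the second, and 0 to 2 lower in the third. Where this left 1 library in a group, its spread was taken from the other groups. In ASO-L1 against sO-L1 the ranges were -0.049 to 0.042 for DNMT1, -0.0047 to 0.088 for DNMT3A, -0.069 to 0.17 for TET1, 0.0044 to 0.24 for MBD2, 0.25 to 0.34 for TET2 and -0.22 to -0.19 for UHRF1. In ASO-L1 against ASO-Ctr they were -0.010 to 0.057 for DNMT3A, -0.28 to -0.17 for DNMT3B, 0.16 to 0.20 for TDG, -0.19 to -0.048 for TET1, 0.048 to 0.17 for TET3, 0.055 to 0.20 for MBD2 and -0.18 to -0.14 for UHRF1. In sO-L1 against ASO-Ctr they were -0.065 to 0.029 for DNMT3A, -0.060 to 0.048 for DNMT3B, -0.11 to 0.13 for MBD2, -0.30 to -0.059 for TET1 and -0.33 to -0.14 for TET3. TET3 and DNMT3B in ASO-L1 against sO-L1 stayed called under every alternative other than no block.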
